A study of Homo sapiens with 15 samples.

Results

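The genes described here were 35 genes of the unfolded protein response and of protein folding in the endoplasmic reticulum (ER), taken from a list of names. They were measured in MH7A, an established human synovial cell line that was made by immortalising synovial fibroblasts with a viral T antigen, so that it stands for 1 line rather than for several donors. Each gene was followed through the transcript cluster that the platform annotation gives it, and the brightest cluster was used for P4HB, the only member with 2. Of the 35 genes, 34 had a cluster of their own and all 34 were tested, among 16872 genes tested of 18417 with a cluster. PDIA3 was not tested, because its clusters also carried the symbol of its pseudogene PDIA3P1. The 34 genes reached the 20th percentile of the array on 15 of 15 arrays.

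The 15 Affymetrix arrays came from 3 experiments, and every experiment gave 1 array for each of the 5 conditions. Cells of every condition had been kept in medium with serum, and the study moved them to medium free of serum and antibiotics before treating them. The conditions were resting cells, cells stimulated with IL-1β at 15 pg/ml for 13 h, and cells that received the same IL-1β together with glucosamine (GlcN), alloxan, or both. The dose of GlcN was 5 mM, beginning 2.5 h ahead of IL-1β and lasting 15.5 h in total. Alloxan, which the study used as an inhibitor of the O-GlcNAc transferase, was kept at 5 mM over the initial 30 min and at 2 mM from then on. The values are log2 signals, and a difference of 1 log2 unit is a 2-fold difference. The array median was between 6.18 and 6.21 in experiment 1, between 7.14 and 7.19 in experiment 2, and between 7.49 and 7.54 in experiment 3. Levels were therefore compared within an experiment, and a level is not comparable between genes. On all 15 arrays 8 of 11 synovial fibroblast markers were at or above the array median, while PDPN and FAP were there on 0 arrays and CDH11 on 2. Of 10 markers of other cell types KRT8 was at or above it on all arrays and the other 9 on 0.

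The unfolded protein response is started by 3 sensors in the ER membrane, IRE1 (encoded by ERN1), ATF6 and PERK, when unfolded proteins accumulate in the lumen. IRE1 splices the mRNA of the transcription factor XBP1, ATF6 is cleaved to release a transcription factor, and PERK phosphorylates eIF2α and so favours translation of ATF4. XBP1 and ATF6 raise transcription of ER chaperones, of oxidoreductases that form disulfide bonds and of the machinery that sends misfolded proteins to the proteasome, called ER-associated degradation. Fibroblast-like synovial cells secrete much matrix protein, which is folded with these factors.

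The promoters of many of these genes carry the ER stress response element (ERSE), CCAAT and CCACG separated by 9 bases, or ERSE-II, ATTGG and CCACG separated by 1 base. Both were searched on both strands in RefSeq promoter windows of assembly GRCh38.p14, from 250 bases before to 50 bases after each gene's start, and 32 of the 35 members had a window. ERSE was found in 27 of 35116 windows (0.0769%) and in 8 of the 32 members. ERSE-II was found in 19 windows (0.0541%) and in 3 members, so that 11 of 32 members (34.4%) held either element against 44 of 27305 genes (0.161%). The stretches below show these elements because of the 4 motifs searched they were held by the most members. Capitals mark the 5-base ends of the element, and an element on the opposite strand reads as CGTGG followed by ATTGG for ERSE or CGTGG followed by CCAAT for ERSE-II. A match describes the letters and is not evidence of binding in these cells.
HSPA5 (ERSE, chr9:125241379-125241421, minus strand): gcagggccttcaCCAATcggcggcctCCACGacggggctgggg
XBP1 (ERSE, chr22:28800591-28800633, minus strand): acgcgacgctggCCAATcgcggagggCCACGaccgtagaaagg
PDIA6 (ERSE, chr2:10812841-10812883, minus strand): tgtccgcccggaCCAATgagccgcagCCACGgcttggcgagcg
CANX (ERSE, chr5:179698766-179698808, plus strand): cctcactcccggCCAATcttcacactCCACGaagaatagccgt
HSP90B1 (ERSE on both strands, chr12:103930204-103930351, plus strand): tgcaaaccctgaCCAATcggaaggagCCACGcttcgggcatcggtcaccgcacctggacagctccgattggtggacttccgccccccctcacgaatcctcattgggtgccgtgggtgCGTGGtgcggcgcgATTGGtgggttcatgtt
CALR (ERSE, opposite strand, chr19:12938372-12938414, plus strand): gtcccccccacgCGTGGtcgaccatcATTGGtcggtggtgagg
CRELD2 (ERSE, opposite strand, chr22:49918542-49918584, plus strand): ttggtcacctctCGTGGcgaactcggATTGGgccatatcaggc
ERO1B (ERSE, opposite strand, chr1:236282171-236282208, minus strand): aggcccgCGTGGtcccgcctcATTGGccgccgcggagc
HERPUD1 (ERSE-II, chr16:56932013-56932047, plus strand): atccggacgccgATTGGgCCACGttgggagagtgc
SDF2L1 (ERSE-II, opposite strand, chr22:21642102-21642136, plus strand): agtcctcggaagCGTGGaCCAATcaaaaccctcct
HYOU1 (ERSE-II, opposite strand, 2 matches, chr11:119057262-119057402, minus strand): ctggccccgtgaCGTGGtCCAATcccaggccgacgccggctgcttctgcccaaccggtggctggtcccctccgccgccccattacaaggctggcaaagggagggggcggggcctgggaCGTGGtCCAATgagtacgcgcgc

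In HSPA5 the first base of the element lay 66 bases before the start, in XBP1 52 and in CRELD2 80, whereas in ERO1B it lay 243 bases before the start. CANX has several starts in the table, and its site lay 9, 151 or 189 bases before them. The UPRE core TGACGTGG was found in 256 windows (0.729%) and in 2 members, DNAJC10 and HYOU1, and in HYOU1 it overlapped the upstream ERSE-II. The ATF4 element TGATGNAA was found in 1270 windows (3.62%) and in 2 members, CREB3L2 and HERPUD1.

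**Figure D1:**
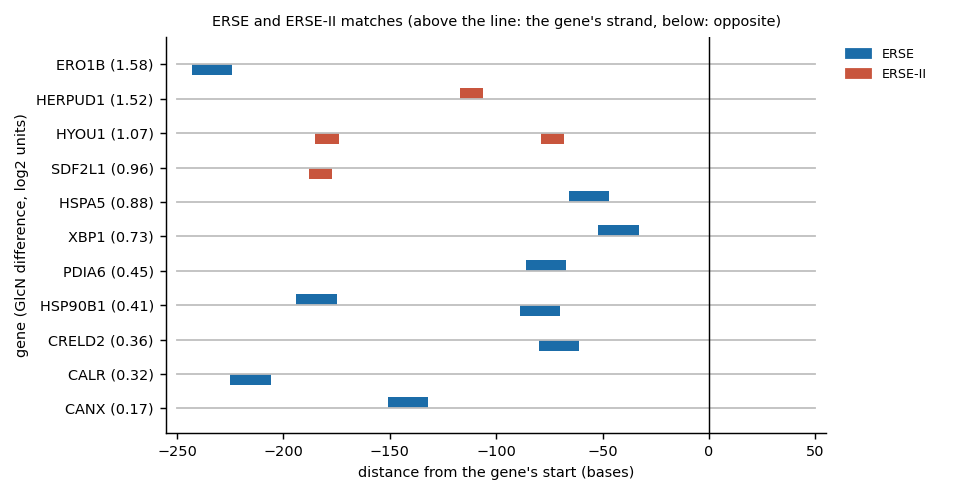
Positions of ERSE and ERSE-II in the promoter windows of 11 members, as the distance from the gene's start in bases (vertical line), ordered by the GlcN difference in log2 units given in brackets. For CANX the start 151 bases after its site is shown. Boxes above a line are on the gene's strand and boxes below it on the opposite strand, and the members with ERSE-II had differences of 0.96 to 1.52.

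The first comparison asked whether IL-1β itself moved these genes. No member passed the test, and the differences between IL-1β and resting cells ran from -0.15 log2 units for DERL2 to 0.14 for SDF2L1, with a median of 0.03. HSPA5, which encodes the ER HSP70 chaperone BiP, was at 11.95, 12.94 and 12.95 log2 units in resting cells of the 3 experiments and at 12.05, 12.92 and 13.09 after IL-1β. The 95% intervals of all 34 differences lay between -0.37 and 0.36. With limma 0 members were called and 0 had an unadjusted p under 0.05, and the methods' t-test also gave 0 and 0. Over all genes the same fit called 0.0% higher and 0.0% lower, with 491 and 486 genes at an unadjusted p under 0.05.

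Adding GlcN to IL-1β raised most of the group. Of 34 members 26 rose and 1, ERO1A, fell, whereas 5.29% of all genes tested were called higher and 6.62% lower. The median difference was 0.45 log2 units over the members and 0.007 over all genes. The difference was above 0 in 3 of 3 experiments for 29 members (85.3%), against 15.0% of all genes. Of the 16872 genes ordered by this difference, 5 members were among the highest 50 and 10 among the highest 100.

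**Figure D2:**
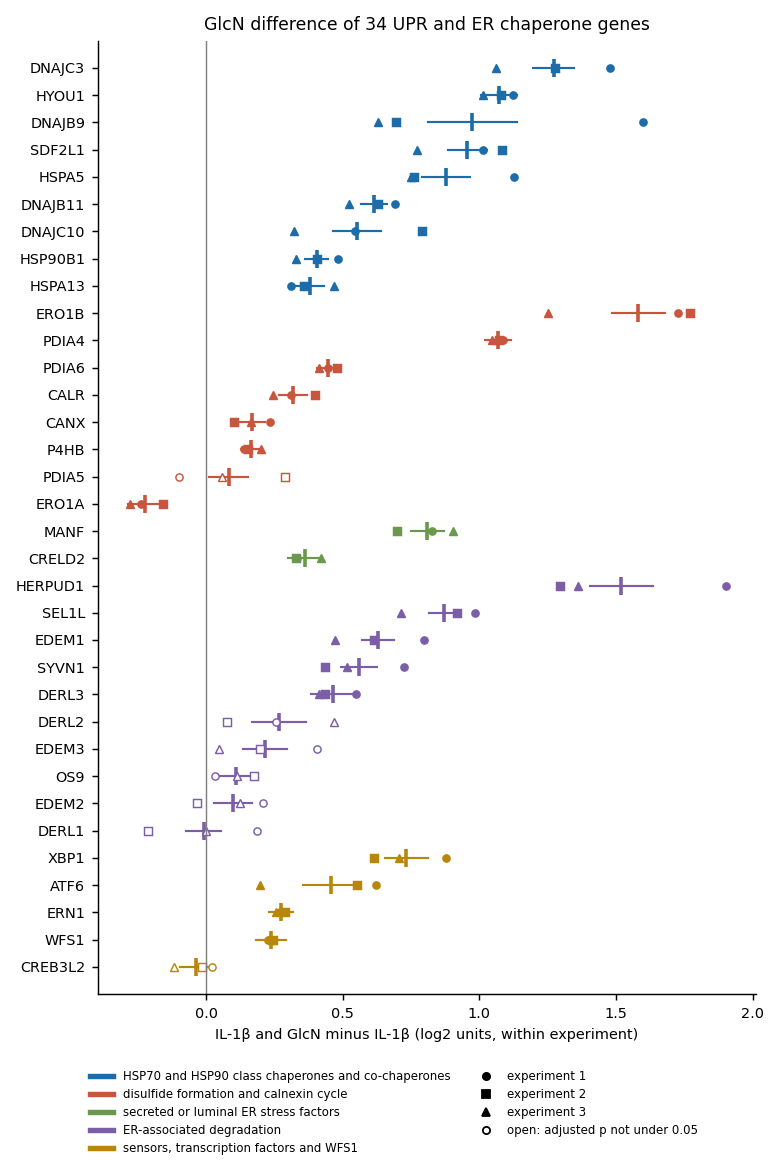
Difference between IL-1β with GlcN and IL-1β alone in log2 units for the 34 members, grouped by role. Each symbol is 1 experiment, the tick is the mean and the line its limma standard error, and open symbols are the members that did not pass. HERPUD1 and ERO1B lie farthest to the right at 1.52 and 1.58, and ERO1A lies to the left of 0 in all 3 experiments.

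These calls rest on taking out the offset between experiments and on a spread taken over all 5 conditions. On the deposited values, which keep that offset, 0 members passed in either direction without the experiment as a block. At an unadjusted p under 0.05 that fit had 3 members higher, against 30 of all 16872 genes. The methods' t-test gave 0 after an adjustment that the study did not make, and 2 higher without it, against 25 of all genes. Run on the deposited values, it does not repeat the study's own test. The study's list of genes raised by GlcN holds members such as HERPUD1, ERO1B, DNAJC3, HYOU1, PDIA4, HSPA5 and XBP1. With the arrays brought to equal medians, an alternative chosen after seeing the data, 12 members were higher and 0 lower in limma without the block. Of all genes 165 were higher and 166 lower in that fit. The methods' t-test at equal medians gave 0 members after adjustment and 16 higher and 1 lower without it, against 485 and 517 of all genes. With the block and only the 6 arrays compared, 0 passed after adjustment and 26 higher and 1 lower had an unadjusted p under 0.05. Over all genes 1308 were higher and 1467 lower at that threshold. The p-values of the main fit measure the spread left once that offset is taken out, over the 5 conditions of these 3 experiments. In bulk RNA fewer cells of a kind and less RNA per cell cannot be told apart.

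All 9 chaperones of the HSP70 and HSP90 class and their co-chaperones rose with GlcN, with a median difference of 0.88 log2 units. HSPA5 was at 12.05, 12.92 and 13.09 with IL-1β and at 13.18, 13.68 and 13.84 with GlcN, a difference of 0.88 ± 0.22 (SD, n = 3) and 1.84-fold, with an adjusted p of 9.18e-05. Its dimmest GlcN array was brighter than its brightest IL-1β array. HYOU1, an HSP70-like nucleotide exchange factor for BiP, went from 9.61, 10.84 and 10.96 to 10.74, 11.92 and 11.97. Its difference of 1.07 ± 0.055 hardly varied between experiments (adjusted p = 3.69e-06), although the ranges of the groups overlapped, since experiment 1 was dimmer than the others in both.

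DNAJC3 (P58IPK), a co-chaperone that also restrains PERK, had the largest difference of the class. It measured 8.12, 9.07 and 9.38 with IL-1β and 9.60, 10.35 and 10.44 with GlcN, a 2.41-fold difference (1.27 ± 0.21 log2 units, adjusted p = 3.24e-06) with no overlap of the groups. DNAJB9 (ERdj4), a J-protein that recruits BiP to IRE1 and to misfolded clients, varied most. It went from 6.61, 8.10 and 7.87 to 8.21, 8.80 and 8.49, so that its difference was 1.60 in experiment 1 and 0.70 and 0.63 in the others (adjusted p = 0.00299). SDF2L1, which keeps BiP and J-proteins in complex, went from 7.34, 8.53 and 8.68 to 8.35, 9.61 and 9.45 (0.96 ± 0.16, adjusted p = 1.37e-05). Smaller rises were seen for the J-proteins DNAJB11 (0.61) and DNAJC10 (0.55), the latter a disulfide reductase, for HSP90B1 (0.405 log2 units, 1.32-fold), the ER HSP90 known as GRP94, and for HSPA13 (0.38), a microsomal HSP70.

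Enzymes of disulfide formation and the lectin chaperones moved less evenly, with 6 of 8 higher, 1 lower and a median of 0.24 log2 units. ERO1B, an oxidase that passes oxidising equivalents to protein disulfide isomerases, was the member with the largest difference. It was at 6.02, 6.88 and 7.38 with IL-1β and at 7.75, 8.65 and 8.63 with GlcN, 2.99-fold higher (1.58 ± 0.29, adjusted p = 3.69e-06) and with no overlap. Its paralog ERO1A went the other way, from 10.64, 11.50 and 11.88 to 10.41, 11.34 and 11.60, a difference of -0.23 ± 0.06 and 0.855-fold (adjusted p = 0.0342). The fall of ERO1A held for 2 of the 9 fits that left out 1 array or experiment and was lost without any 1 experiment and with quantile normalization, with an unadjusted p under 0.05 in each of these.

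PDIA4 (ERp72), a disulfide isomerase, had the most even rise in this class. Its values of 10.67, 11.67 and 11.95 became 11.76, 12.74 and 12.99, a 2.10-fold difference (1.07 ± 0.02, adjusted p = 5.4e-07). Further isomerases rose less, PDIA6 by 0.45 and P4HB, the founding member of the family, by 0.16, and PDIA5 differed by 0.08 without passing (adjusted p = 0.55). Calreticulin (CALR, 0.32) and calnexin (CANX, 0.17), the lectins that hold monoglucosylated glycoproteins, both rose. The call of CANX held in 1 and that of P4HB in 5 of the 9 fits without 1 array or experiment.

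Both secreted ER stress factors rose. MANF, a luminal protein that stabilises BiP with its clients, was at 10.63, 11.65 and 11.46 with IL-1β and at 11.45, 12.35 and 12.36 with GlcN (0.81 ± 0.10, adjusted p = 1.52e-05), higher in each experiment with overlapping ranges. CRELD2, a disulfide isomerase-like factor that leaves the cell under ER stress, differed by 0.36.

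Of 10 genes of ER-associated degradation 5 rose, with a median of 0.365 log2 units. HERPUD1, an ER membrane protein that assembles the degradation complex, went from 9.62, 10.65 and 10.97 to 11.52, 11.95 and 12.33, 2.87-fold higher (1.52 ± 0.33, adjusted p = 1.57e-05), again with no overlap. SEL1L, the adaptor of the ubiquitin ligase HRD1, was at 9.74, 10.88 and 11.11 with IL-1β and at 10.73, 11.80 and 11.82 with GlcN (0.87 ± 0.14, adjusted p = 4.95e-06). SYVN1, which encodes HRD1 itself, rose by 0.56, the mannose-trimming EDEM1 by 0.63 and DERL3, a derlin of the dislocation channel, by 0.46.

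Members of the same families did not all move. EDEM2 and EDEM3 differed by 0.10 and 0.22, DERL1 and DERL2 by -0.01 and 0.27, and the lectin OS9 by 0.11, none of which passed. Their adjusted p-values ran from 0.111 for DERL2 to 0.959 for DERL1, and that each differed less than its paralogs was not tested.

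Among the sensors and transcription factors 4 of 5 rose. XBP1 was at 9.23, 10.53 and 10.55 with IL-1β and at 10.10, 11.15 and 11.26 with GlcN, 1.66-fold higher (0.73 ± 0.13, adjusted p = 0.000157), and the array signal does not separate its spliced from its unspliced mRNA. ATF6 went from 9.87, 10.76 and 11.59 to 10.49, 11.31 and 11.79 (0.46 ± 0.23, adjusted p = 0.0149), with the smallest change in experiment 3, and its call held in 2 of the 9 fits without 1 array or experiment. ERN1 went from 7.23, 8.43 and 8.79 to 7.50, 8.72 and 9.05, a small but even difference of 0.27 ± 0.02 (adjusted p = 0.00246). WFS1, the wolframin of the ER membrane, rose by 0.24, with the call held in 3 of 9 such fits. CREB3L2, a transcription factor of the ATF6 type that serves secretory capacity, was at 9.49, 10.94 and 11.18 with IL-1β and at 9.51, 10.92 and 11.06 with GlcN, so that the sign differed between experiments (-0.04, adjusted p = 0.775). Of the 26 rises, 17 held in each of the 9 fits.

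The 11 members with ERSE or ERSE-II in the printed stretches rose in 11 of 11 cases. Of all genes 5.29% were called higher and 6.62% lower. The differences of the 11 were 0.17 to 1.58 log2 units with a median of 0.73. The lowest was CANX, whose call held in 1 of the 9 fits without 1 array or experiment. Only exact matches within the window were counted, so that variants and more distant sites were not searched. Of 21 members with a window that held neither element, 14 rose and 1 fell, and their median was 0.38. Their range of -0.23 to 1.27 overlapped that of the former, and DNAJC3 was the highest of them. The 3 members with ERSE-II had differences of 0.96, 1.07 and 1.52. Whether members with and without an element differed was not tested.

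Alloxan without GlcN lowered 10 of 34 members and raised 2, while 7.21% of all genes were called lower and 6.13% higher. The median was -0.11 log2 units over the members and 0.015 over all genes, and 18 members (52.9%) were below 0 in all 3 experiments against 16.1% of all genes. The 10 that fell were XBP1, HSPA5, MANF, PDIA4, SEL1L, PDIA6, CREB3L2, SDF2L1, HSP90B1 and DNAJB11. XBP1 fell from 9.23, 10.53 and 10.55 to 8.72, 10.08 and 10.24, a difference of -0.43 ± 0.10 (0.744-fold, adjusted p = 0.00501). HSPA5 went to 11.66, 12.48 and 12.70 (-0.40 ± 0.03, adjusted p = 0.0118), below resting cells in every experiment. MANF went to 10.21, 11.07 and 11.26 (-0.40 ± 0.19, adjusted p = 0.00179).

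PDIA4 was the member whose fall was kept in all 9 fits without 1 array or experiment. It was at 10.30, 11.33 and 11.66 with alloxan (-0.33 ± 0.045, adjusted p = 0.00127). CREB3L2, which did not pass for GlcN, was at 9.16, 10.80 and 10.89 (-0.25 ± 0.095, adjusted p = 0.0163). The 2 members that rose were ERO1B, to 6.59, 7.57 and 7.65 (0.51 ± 0.21, adjusted p = 0.00633), and ERN1, to 7.50, 8.55 and 9.03 (0.21 ± 0.08, adjusted p = 0.00956). ATF6 was at 9.70, 10.99 and 11.28 and ERO1A at 10.53, 11.62 and 11.61, neither of which passed.

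These smaller differences depended on the number of experiments. Without experiment 1, 2 or 3 the number of members called lower was 3, 5 or 4, and without the alloxan array of experiment 1 it was 6. The call of DNAJB11 held in 0 of the 9 fits without 1 array or experiment, that of SDF2L1 in 2 and that of CREB3L2 in 4. Without the block, with only the arrays compared or with the methods' t-test the number called lower was 0, as was the number called higher. In the blocked fit of only the arrays compared 15 members were lower and 3 higher at an unadjusted p under 0.05. Of all 16872 genes 1664 were lower and 1626 higher there. At equal medians without the block 1 member was called lower and 0 higher, against 180 and 78 of all genes.

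**Figure D3:**
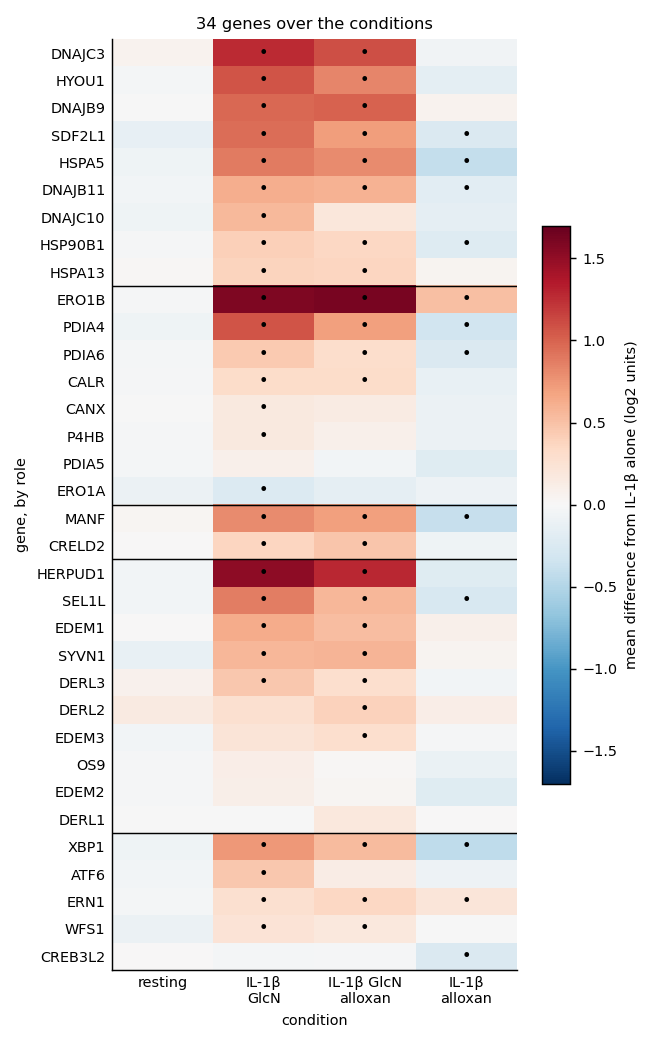
Mean difference from IL-1β alone in log2 units for the 34 members (rows, grouped by role) in the 4 other conditions (columns), with red for higher and blue for lower. Dots mark differences with an adjusted p under 0.05, and the resting column holds none.

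With GlcN and alloxan together 24 of 34 members were higher than with IL-1β alone and 0 were lower, against 9.06% and 8.47% of all genes. This comparison uses the same IL-1β arrays as those of GlcN and of alloxan. The median difference was 0.36 log2 units. ERO1B, at 7.60, 8.79 and 8.72, was 3.06-fold higher (1.61 ± 0.29, adjusted p = 3.38e-06). HERPUD1 reached 11.12, 11.82 and 12.16 (1.285 ± 0.18) and DNAJC3 9.22, 10.21 and 10.42 (1.09 ± 0.05). HSPA5 was at 13.06, 13.67 and 13.75 (0.805 ± 0.18) and XBP1 at 9.75, 10.92 and 11.25 (0.535 ± 0.15). DERL2 (0.39) and EDEM3 (0.29), which had not passed with GlcN alone, passed here, with the call held in 4 and 3 of the 9 fits without 1 array or experiment. The rise of WFS1 (0.18) held in 0 and that of DERL3 (0.29) in 3 of them. ATF6 at 10.00, 11.11 and 11.50 and ERO1A at 10.52, 11.47 and 11.59 did not pass.

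Set directly against GlcN, the addition of alloxan lowered 3 members and raised 0, against 3.52% and 3.27% of all genes. The 3 were PDIA4 (-0.37 ± 0.13, adjusted p = 0.00123), SEL1L (-0.31 ± 0.08, adjusted p = 0.0089) and DNAJC10 (-0.36 ± 0.06, adjusted p = 0.0308). PDIA4 was at 11.29, 12.31 and 12.77 with both compounds, SEL1L at 10.35, 11.46 and 11.60, and DNAJC10 at 9.68, 10.48 and 10.70. DNAJC10 was at 10.08, 10.87 and 11.00 with GlcN, so that the drop was of like size in each experiment. The median over the members was -0.07. Without experiment 1, 2 or 3 the number lower was 1, 0 or 1, and without the GlcN array of experiment 3 it was 5. PDIA4 was called in 8, SEL1L in 6 and DNAJC10 in 1 of the 9 fits without 1 array or experiment. The number lower was also 5 with a stricter filter, with quantile normalization or with an intensity trend.

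The GlcN difference was then taken between the arrays that both held alloxan. Of 34 members 22 were higher and 0 lower, where all genes had 1.86% and 1.67%. The median was 0.44 log2 units, and 33 members (97.1%) were above 0 in 3 of 3 experiments against 16.8% of all genes. The exception was ERO1A (-0.06 ± 0.08, adjusted p = 0.679). HERPUD1 differed by 1.49 ± 0.21, HSPA5 by 1.21 ± 0.18 (2.31-fold), DNAJC3 by 1.155 ± 0.05 and MANF by 1.09 ± 0.12. HYOU1 differed by 0.99 in each of the 3 experiments. ATF6 (0.21), ERN1 (0.14), WFS1 (0.19), DNAJC10 (0.34) and the EDEM2, EDEM3, DERL1, DERL2, OS9, PDIA5 and CREB3L2 genes were above 0 in all 3 experiments without passing. The number higher was 13 without experiment 3, and 13 members were called in each of the 9 fits without 1 array or experiment. The number higher was 0 without the block, with only the arrays compared and with the methods' t-test. With only the arrays compared 32 members and 1687 of all 16872 genes were higher at an unadjusted p under 0.05. For both compounds against IL-1β these 3 fits called 0, 8 and 0 members higher, and 0, 124 and 0 of all genes. At equal medians without the block the numbers higher were 10 under alloxan and 12 for both compounds, against 47 and 278 of all genes.

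**Figure D4:**
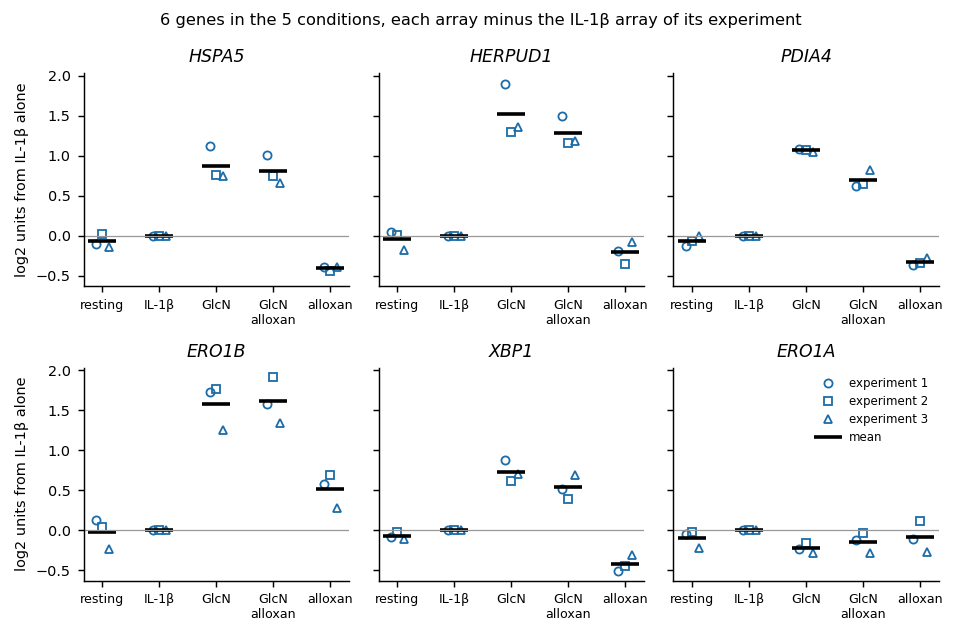
Signals of 6 members in the 5 conditions as log2 units from the IL-1β array of the same experiment. Symbols are the 3 experiments and bars their means. HSPA5, PDIA4 and XBP1 lie below 0 with alloxan alone and above 0 with GlcN and alloxan.

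Whether the GlcN difference itself changed with alloxan was tested as an interaction. No member passed, where 0.0119% of all genes were called with a larger and 0.0593% with a smaller GlcN difference under alloxan. At an unadjusted p under 0.05 limma gave 923 of the 16872 genes with a larger and 937 with a smaller difference. Among the members the numbers were 5 and 2, and 0 of either without the block. The smallest adjusted p was 0.284, for ERO1B, whose GlcN difference was 1.58 without and 1.10 with alloxan, a change of -0.48 with a 95% interval from -0.79 to -0.18. The other smaller difference was that of EDEM1 (-0.19, interval -0.37 to -0.01). The 5 larger ones were HSPA5 (0.33, interval 0.06 to 0.60), MANF (0.28, 0.09 to 0.47), CREB3L2 (0.26, 0.08 to 0.45), HSP90B1 (0.18, 0.05 to 0.31) and DNAJB11 (0.16, 0.01 to 0.31). XBP1 (0.23, -0.02 to 0.47) was not among them. For HERPUD1 the change was -0.03 with an interval from -0.39 to 0.33, and for PDIA4 -0.04 with one from -0.19 to 0.10. Over the 34 members the intervals had a median half-width of 0.20, and their outermost bounds were those of ERO1B and HSPA5.

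**Figure D5:**
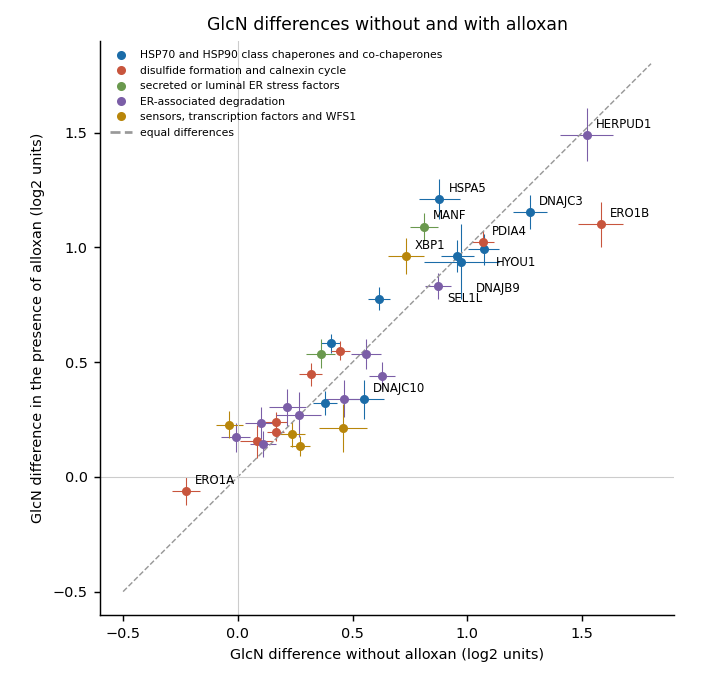
GlcN difference in log2 units without alloxan (horizontal) and in its presence (vertical) for the 34 members, coloured by role, with limma standard errors. The dashed line marks equal differences; ERO1B lies below it, HSPA5, MANF and XBP1 above it, and none passed the interaction test.

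Other genes of the pathway were followed through lists in the same blocked fit. All genes had 5.29% higher and 6.62% lower with GlcN. Of 10 further sensors and regulators 4 rose and 1 fell. ATF4, the transcription factor downstream of PERK, rose by 0.77 ± 0.28 log2 units, MBTPS2, the protease that cuts ATF6, by 0.57 ± 0.215, and CREB3, a related factor, by 0.345 ± 0.13. Of 15 genes of the PERK and ATF4 arm 11 rose and 1 fell, with a median of 1.14. DDIT3, which encodes CHOP, was 4.65-fold higher (2.22 ± 0.46), TRIB3, a pseudokinase induced by CHOP, 3.08-fold (1.62 ± 0.305) and SESN2, a stress sensor that restrains mTORC1, 2.51-fold (1.33 ± 0.19).

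With alloxan alone 7 of the 15 genes rose and 0 fell, where 6.13% of all genes were higher, and DDIT3 rose by 0.605 ± 0.20 and SESN2 by 0.80 ± 0.08. These 7 rises were not followed through the fits without 1 array or experiment. Without the block 0 of all 16872 genes were called for alloxan in either direction. Of the 9 chaperones and co-chaperones of the HSP70 and HSP90 class 4 fell and 0 rose in the same comparison, where 7.21% of all genes were lower. Of the 9 fits without 1 array or experiment, HSP90B1 was called lower in 7, HSPA5 in 6, SDF2L1 in 2 and DNAJB11 in 0. The difference between these groups of genes was not tested. In the interaction test 2 of the 15, SESN2 (-0.89, adjusted p = 0.00515) and DDIT4 (-1.15, adjusted p = 0.0309), had a smaller GlcN difference under alloxan. Both calls were lost without experiment 1, 2 or 3, where the adjusted p was 0.139 to 0.428 for SESN2 and 0.157 to 0.503 for DDIT4, and without the block. The call of SESN2 held in each of the 12 fits without 1 array and that of DDIT4 in 5 of them. DDIT4 was also lost with only the groups compared (adjusted p = 0.0906). DDIT4, an inhibitor of mTORC1, was named after its values were seen.

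Lists of the wider secretory machinery had medians nearer to 0. Of 36 other disulfide isomerases and foldases 10 (27.8%) rose and 6 (16.7%) fell with GlcN, with a median of 0.03, and CRELD1, a paralog of CRELD2, rose by 0.78 ± 0.09, the testis calnexin CLGN by 0.64 ± 0.16 and ERP44, which retains ERO1 in the early secretory pathway, by 0.38 ± 0.09. Of 25 other genes of ER-associated degradation 2 rose and 3 fell, against 5.29% and 6.62% of all genes. Those that rose were RHBDD1 (0.66 ± 0.21), a rhomboid protease, and SELENOK (0.50 ± 0.12), and the ubiquitin-conjugating enzyme UBE2G2 (-0.25 ± 0.05) was among those that fell. Of 33 genes of the translocon, signal peptidase and oligosaccharyltransferase 11 (33.3%) rose and 1 (3.03%) fell, with a median of 0.13, and with TRAM1 at 0.63 ± 0.07, SEC11C at 0.78 ± 0.12 and SEC63, the membrane J-protein partner of BiP, at 0.37 ± 0.13.

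Of 36 vesicle coat and cargo receptor genes 3 (8.33%) rose and 2 (5.56%) fell, near the shares of all genes, and their median was 0.05. TMED10 and TMED2, which are cargo receptors, rose by 0.26 ± 0.13 and 0.21 ± 0.06, and the coat subunit SEC24A fell (-0.41 ± 0.16). Of 20 cytosolic and mitochondrial chaperones 1 (5.0%) rose and 8 (40.0%) fell, with a median of -0.16. HSPA8 (-0.24 ± 0.06) and HSP90AA1 (-0.31 ± 0.13), the cytosolic HSP70 and HSP90, fell where their ER counterparts HSPA5 and HSP90B1 rose, and HSPA9, the mitochondrial HSP70, rose by 0.37 ± 0.18. For GlcN in the presence of alloxan 0 of the 20 rose and 0 fell, against 1.86% and 1.67% of all genes. HSPA8 (-0.07 ± 0.06) and HSP90AA1 (-0.08 ± 0.06) did not pass there.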

How the data were processed

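RNA of MH7A cells was hybridised to Affymetrix Human Gene ST arrays, 15 in all. Log2 values, 1 for each transcript cluster, were deposited by the authors after RMA in Expression Console (version not given in the sources used here). Precision is limited by the number of arrays. RMA corrects background and normalizes, and neither step was repeated. The deposited values still kept an offset between experiments, with array medians of 6.18 to 6.21 in experiment 1 and 7.49 to 7.54 in experiment 3. Of 33297 clusters, 19460 had 1 symbol in the platform annotation, 1754 several and 12083 none listed, and 19429 were named through a RefSeq gene ID of GRCh38.p14. Those with more than 1 symbol were not used.

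The brightest cluster stood for a gene, and a gene was tested if at least 3 arrays had it at or above their 20th percentile. Conditions were compared with limma 3.58.1 in R 4.3.3 (lmFit, eBayes, two-sided, Benjamini-Hochberg over 16872 genes, threshold 0.05), with the experiment as a block. The study's t-test was unpaired and uncorrected, and was run in GeneSpring on values whose scaling there is not given in the sources used here. The methods' t-test below is an unpaired t-test on the deposited values with Benjamini-Hochberg adjustment, so that it does not repeat the study's own. The block was used because the genes were to be described within an experiment. Arrays of 1 experiment deviated together from their group means (correlations 0.621 to 0.848 over 30 pairs, against -0.656 to -0.068 over 60 pairs of different experiments), and the experiment numbers in the labels give the pairing. Deviations within a group sum to 0, so that the negative correlations follow from the positive ones and are no separate support. No pair of arrays was a duplicate (highest correlation 0.998, smallest median absolute difference 0.0397 log2 units). After moderation the fit had 11.1 degrees of freedom. Errors printed with ± are SDs of the 3 within-experiment differences.

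The members, lists and motifs were chosen with earlier results of these data known, so that no list result is independent support. All members were named. Values on each array are given for the 10 members with the largest GlcN difference past the threshold, those lower there, up to 5 called for alloxan, and XBP1, ATF6, ERN1 and CREB3L2. Up to 3 genes of each other list with the smallest p for GlcN were named. DNAJC10, DDIT4 and further members were added where a count or comparison needed them. Alternatives were no block, only the groups compared, filters, the mean over clusters, quantile normalization, equal medians, an intensity trend, the methods' t-test and leaving out each array or experiment. Equal medians without the block, in limma and in an unpaired t-test, were added after seeing the data. Promoter windows were RefSeq's, and 3 members (PDIA3, DERL1 and DERL3) had none. Figures were drawn with matplotlib 3.10.9 in Python 3.11.15.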

Additional observations from a re-analysis of the deposited data

How the results depend on the processing

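The calls depended on taking out the offset between experiments that the deposited values keep. On those values without the experiment as a block, and with an unpaired, adjusted t-test, the number of members called was 0 higher and 0 lower for GlcN, alloxan or both compounds against IL-1β, for the GlcN difference under alloxan and for alloxan added to GlcN, while each mean difference stayed the same by construction. In 2 alternatives chosen after seeing the data the arrays were brought to equal medians. Without the replicate block limma then called 12 members higher and 0 lower for GlcN, 0 higher and 1 lower for alloxan, 12 higher for both compounds, 10 higher for GlcN in the presence of alloxan and 1 lower for alloxan added to GlcN. In the same order it called 165, 78, 278, 47 and 8 of all 16872 genes higher and 166, 180, 388, 27 and 71 lower. The unpaired t-test at equal medians called 2 members higher for GlcN in the presence of alloxan and 0 in the others after adjustment. At an unadjusted p under 0.05 it had 16, 1, 17 and 0 higher and 1, 4, 0 and 3 lower for GlcN, alloxan, both compounds and alloxan added to GlcN. Of all genes 485, 582, 745 and 452 were higher and 517, 633, 743 and 498 lower there. With the block and only the groups compared 0 members were called in each of these comparisons except both compounds against IL-1β. There 8 members were higher, against 124 of all genes. With quantile normalization 24 members in place of 26 were called higher and 0 lower for GlcN. It also ended 2 of the calls for GlcN in the presence of alloxan and 1 of those for both compounds. For alloxan added to GlcN it called 5 members lower, as did the filter at the 50th percentile and the intensity trend. No filter, the mean over clusters and equal medians ended none of the members' calls, and equal medians gave 24 in place of 22 members higher for GlcN in the presence of alloxan.

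Leaving out 1 array or experiment, 20 to 25 members were called higher and 0 to 1 lower for GlcN. For both compounds against IL-1β 20 to 23 were higher. For GlcN in the presence of alloxan 13 to 20 were higher, and the median ran from 0.41 to 0.48. For alloxan alone 0 to 2 were higher and 3 to 8 lower, with medians of -0.1427 to -0.0876. For alloxan added to GlcN 0 to 1 were higher and 0 to 5 lower, with medians of -0.0776 to -0.0199. The median for both compounds was 0.36 to 0.39. For GlcN, 3 members that had not passed changed sign: PDIA5 (-0.0198 to 0.1727), DERL1 (-0.1073 to 0.092, and 0.0089 with quantile normalization) and CREB3L2 (-0.0664 to 0.0058). The cause of these changes was not tested. The methods' t-test has no interaction term and was not run there.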
